A study of Mus musculus with 40 samples.

Results

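The 10 genes described here encode ligands, receptors and extracellular regulators of the transforming growth factor beta (TGF-beta) and activin pathway: the ligand genes Tgfb1, Tgfb2, Tgfb3, Inhba and Inhbb, the receptor genes Tgfbr1, Tgfbr2 and Tgfbr3, and the regulator genes Fst and Ltbp1. They were chosen by name, and each symbol was matched to its Ensembl identifier among the 25044 genes of the adult count table and the 24268 genes of the pubertal count table, of which 23180 were in both. All 10 were in both tables and none had a count of 0 in any of the 40 libraries. Inhba had the lowest counts, with 6 reads in its lowest library and more than 1 CPM (read counts scaled to a common library total) in 35 of 40 libraries, while the other 9 passed 1 CPM in all 40.

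RNA was sequenced from the 3rd and 4th mammary glands of wildtype female FVB/N mice, separated into 4 populations: luminal cells (lin-/EpCAM high/CD49f med), basal cells (lin-/EpCAM med/CD49f high), fibroblasts, which were the sorted lin-/EpCAM-/CD49f- stromal cells, and adipocytes, which were the floating fat fraction and were not sorted. Pubertal glands came from mice of 34 to 36 days, and adult glands came from mice of 14 to 16 weeks staged as proestrus, estrus, metestrus or diestrus, with 2 libraries for each cell type at puberty and at each stage. Each pubertal library pooled 4 mice and each adult library pooled 2 or 3, so a replicate is a pool, and the 4 cell types of an adult replicate came from the same pool. The pubertal and adult libraries were sequenced in different runs, so age and run cannot be told apart. Library totals ran from 8991222 to 22760563 counts.

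The populations carried their own markers, with some markers of other cells. The 6 luminal markers (Krt18 among them) summed to 14280 to 30350 CPM in luminal libraries, the 6 basal markers to 10550 to 16870 CPM in basal libraries, the 6 adipocyte markers to 2560 to 14240 CPM in adipocyte libraries and the 6 fibroblast markers to 15290 to 55520 CPM in fibroblast libraries. Endothelial markers (6 genes, with Pecam1 at 148 to 955 CPM) summed to 436 to 2547 CPM in the adipocyte and fibroblast libraries and to at most 50.8 CPM in the epithelial ones. The lineage gate of the sorted fibroblasts included CD31, the product of Pecam1. Fibroblast markers summed to 2307 to 4433 CPM in adult adipocyte libraries and to 4387 and 10590 CPM in the pubertal ones, where adipocyte markers summed to 7067 and 2560 CPM. Basal markers (Krt14, Acta2 and Myh11 among them) summed to 1082 to 2042 CPM in fibroblast libraries. Krt14 alone was at most 92.7 CPM there, against 2764 to 7609 CPM in basal libraries. Pericyte and smooth muscle markers (6 genes) summed to 1047 to 1711 CPM in fibroblast libraries and to 334 to 1097 CPM in adipocyte libraries. Luminal markers summed to 783.6 to 1984 CPM in basal libraries. Of the adipocyte libraries, 3 held over 100 CPM of summed epidermal markers (5 measured genes), namely proestrus replicate 1 (222 CPM), diestrus replicate 2 (1736 CPM) and puberty replicate 2 (724 CPM), and in the last 2 the basal markers summed to 3241 and 1950 CPM. The pubertal basal libraries held 100.2 and 156 CPM of epidermal markers, against at most 2.66 CPM in adult basal libraries. In tissue fractions of this kind, fewer cells of a type and less RNA per cell cannot be told apart.

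TGF-beta is secreted in a latent complex that binding proteins such as the product of Ltbp1 tether to the extracellular matrix, and once released it joins a type II receptor (Tgfbr2) and a type I receptor (Tgfbr1) that phosphorylate Smad2 and Smad3. Betaglycan, the product of Tgfbr3, presents ligand, TGF-beta2 in particular, to the signalling receptors and also binds inhibin. Activins are dimers of the beta subunits encoded by Inhba and Inhbb, signal through related receptors to the same Smads, and are bound and neutralised by follistatin (Fst). In the mammary gland TGF-beta is known as an inhibitor of ductal growth and branching, and the gland is remodelled at puberty and, to a lesser degree, with each estrous cycle.

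Sequence upstream of the transcription start is shown for Ltbp1 and for the activin subunit genes Inhba and Inhbb. Luminal Ltbp1 was highest in the proestrus libraries, and basal Ltbp1 was higher in the pubertal than in the adult libraries. The levels of Inhba and Inhbb differed in size and in cell type. The 250 bases before each RefSeq start are given 5′ to 3′ on the strand of the gene (build GRCm38.p6), with motif matches in capitals. Of the 10 genes, 7 had an entry in the promoter table, with 9 starts in all. The starts shown follow chr17:75005279-75005528 (Ltbp1 upstream start, plus strand), chr17:75178531-75178780 (Ltbp1 downstream start, plus strand), chr13:16011601-16011850 (Inhba, plus strand) and chr1:119422249-119422498 (Inhbb, minus strand).
Ltbp1 upstream start: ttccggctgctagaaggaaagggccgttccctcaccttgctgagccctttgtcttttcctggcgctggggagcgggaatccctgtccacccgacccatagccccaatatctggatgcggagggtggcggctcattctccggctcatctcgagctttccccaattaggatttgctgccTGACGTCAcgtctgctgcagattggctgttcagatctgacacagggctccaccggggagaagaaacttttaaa
Ltbp1 downstream start: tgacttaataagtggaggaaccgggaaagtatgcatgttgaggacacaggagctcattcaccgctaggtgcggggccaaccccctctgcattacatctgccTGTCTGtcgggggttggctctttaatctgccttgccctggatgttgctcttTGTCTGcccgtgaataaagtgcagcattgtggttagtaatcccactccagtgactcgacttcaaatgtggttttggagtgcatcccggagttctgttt
Inhba: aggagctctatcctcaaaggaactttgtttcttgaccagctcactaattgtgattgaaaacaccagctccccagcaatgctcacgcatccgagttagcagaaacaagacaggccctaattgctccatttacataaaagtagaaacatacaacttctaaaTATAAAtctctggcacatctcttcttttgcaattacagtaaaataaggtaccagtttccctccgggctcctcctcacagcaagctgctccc
Inhbb: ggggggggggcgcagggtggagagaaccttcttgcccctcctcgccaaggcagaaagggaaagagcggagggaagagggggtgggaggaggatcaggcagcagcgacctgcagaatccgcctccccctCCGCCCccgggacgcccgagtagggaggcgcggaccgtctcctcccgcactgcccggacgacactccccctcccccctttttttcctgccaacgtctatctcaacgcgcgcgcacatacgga

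Both strands were searched for 5 motifs. The upstream Ltbp1 window held the cyclic AMP response element TGACGTCA at bases -73 to -66 from the start, a match found in 1.55% of 32851 promoter windows of the same length. The downstream Ltbp1 window held the Smad box CAGACA, read on the other strand as TGTCTG, at bases -149 to -144 and -98 to -93, and 17.1% of windows held that motif. The Inhba window held TATAAA at bases -91 to -86 (12.4% of windows) and had 43.2% G and C, while the Inhbb window held the GC box GGGCGG, read on the other strand, at bases -122 to -117 (32.7% of windows) and had 68.0% G and C, against a median of 52.4% over all windows. The AP-1 site TGANTCA, present in 6.75% of windows, was in none of the 4. Counts were made per gene, so the Ltbp1 starts are not separated in the values below. A match is a run of letters and was not tested as a binding site.

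Levels across the cell types are given as CPM scaled by the trimmed mean of M-values (TMM) and, where genes are compared with each other, as CPM per kilobase of exon (RPKM). Each cell type was tested against the mean of the other 3 with edgeR's quasi-likelihood test, with Benjamini-Hochberg adjustment over all genes and a threshold of 0.05, in 32 adult libraries and separately in 8 pubertal libraries. In the adult fit of 15077 genes, fibroblasts had 9 of the 10 genes higher and none lower, against 39.9% of all genes higher and 37.7% lower. Adipocytes had 1 higher and 7 lower (all genes 43.9% and 36.6%). Luminal cells had 5 higher and 5 lower (38.0% and 35.7%), and basal cells 3 higher and 4 lower (39.7% and 34.6%). The median log2 fold change of the 10 genes was 1.2 in fibroblasts and -1.0 in adipocytes, beside -0.02 and 0.10 over all genes tested. In both directions together 73.8% to 80.5% of all genes were called, so a call alone sets none of these genes apart, and the levels below show where each was expressed.

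**Figure D1:**
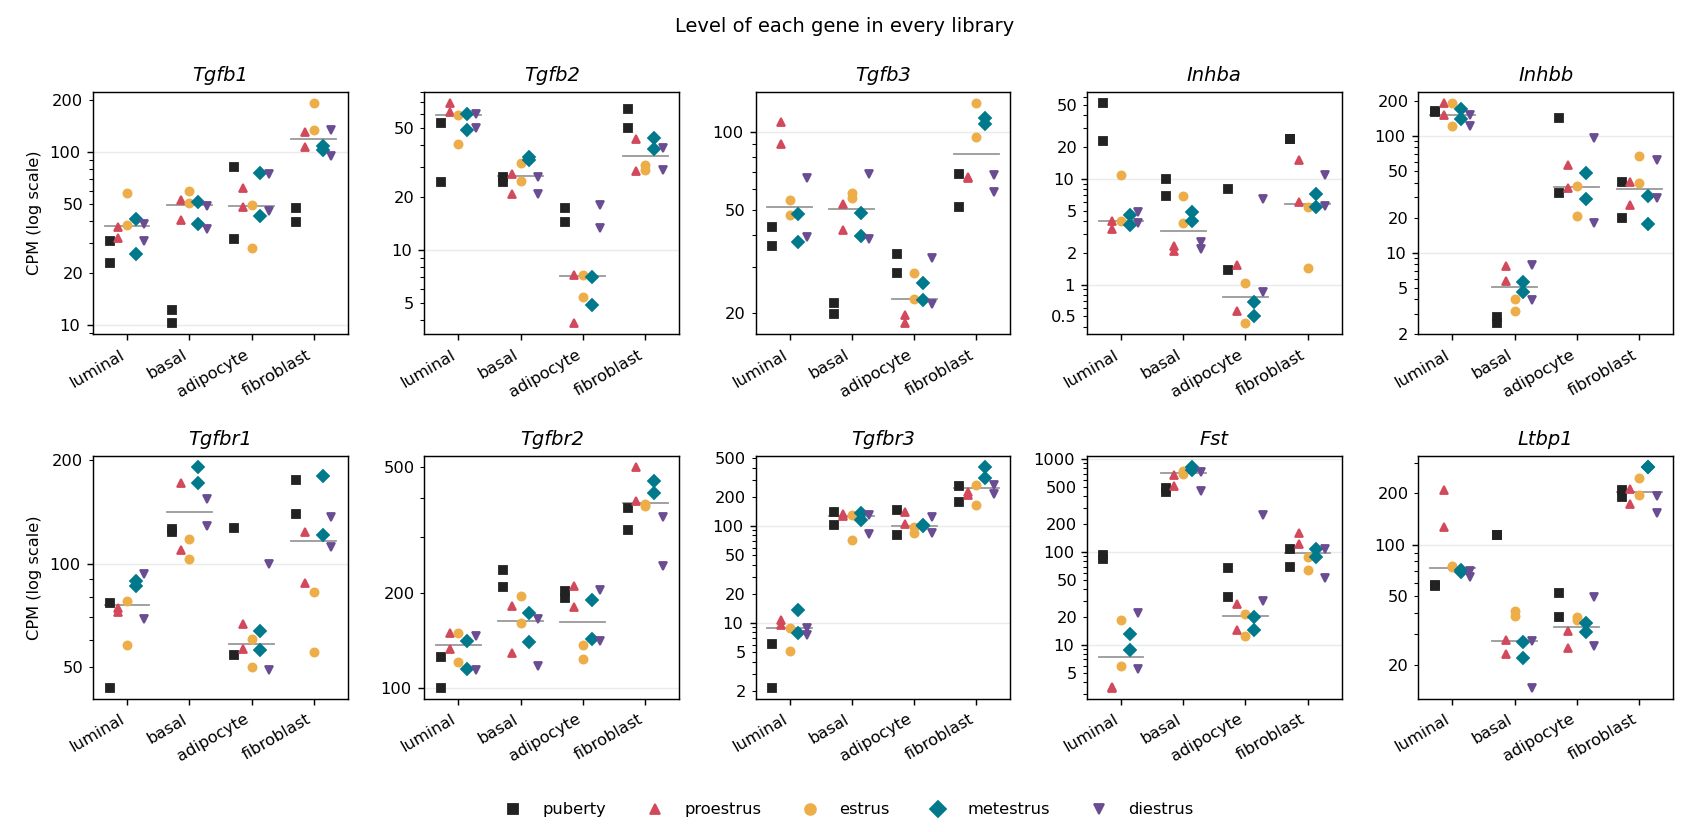
CPM on a log scale (vertical axis) of each gene in every library, by cell type (horizontal axis), with symbols for puberty and the 4 estrous stages and a grey bar at the median of the 8 adult libraries. Among adult libraries, Fst in basal cells (459 to 825 CPM) and Inhbb in luminal cells (122 to 194 CPM) stand above the other cell types. Luminal Tgfbr3 (5.14 to 13.7 CPM) stands below them. Inhbb in adipocyte puberty replicate 1, at 144 CPM, lies within the adult luminal range.

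Of the ligands, Tgfb1 (ENSMUSG00000002603, chr7:25687002-25705077, GRCm38), the form known for its part in fibrosis and immune regulation, was highest in adult fibroblasts. Its adult fibroblast level was 95.05 CPM at the lowest, 119.6 CPM at the median and 194 CPM at the highest, above each of the 24 other adult libraries, which reached 75.8 CPM. The log2 fold change against the other types was 1.46 ± 0.13 (SE, n = 8 libraries per cell type, edgeR adjusted p = 1.33e-09). Medians of 49.7 CPM in basal cells, 48.8 CPM in adipocytes and 37.3 CPM in luminal cells followed, and neither basal and adipocyte libraries (-0.16 ± 0.17, adjusted p = 0.37) nor luminal and basal libraries (-0.34 ± 0.17, adjusted p = 0.073) differed past the threshold, while luminal libraries were lower than adipocyte libraries (-0.50 ± 0.17, adjusted p = 0.0091). At puberty the order was not the same. Fibroblasts had 39.5 and 47.8 CPM, adipocytes 82.2 and 31.5 CPM, luminal cells 30.6 and 23.02 CPM and basal cells 10.2 and 12.2 CPM. Basal cells were lower than the rest (-1.90 ± 0.39, edgeR adjusted p = 0.0062), a call that left the threshold when either basal library was dropped (adjusted p = 0.079 and 0.052). The pubertal adipocyte excess (1.29 ± 0.32, edgeR adjusted p = 0.017) rested on replicate 1, and without it the difference was 0.42 (adjusted p = 0.33).

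Tgfb2 (ENSMUSG00000039239, chr1:186622792-186705989), the isoform that depends most on betaglycan, had its adult maximum in luminal cells. Luminal libraries ran from 40.6 to 69.7 CPM with a median of 59.4 CPM, fibroblasts from 28.3 to 43.9 CPM, basal cells from 20.9 to 34.1 CPM and adipocytes from 3.80 to 18.2 CPM with a median of 7.12 CPM. All 6 pairs of cell types differed past the threshold, and the luminal excess over the other types was 1.54 ± 0.10 and the adipocyte deficit -2.31 ± 0.13 on the log2 scale (edgeR adjusted p = 2.51e-11 and 1.48e-12). The smallest of the 6, between basal cells and fibroblasts (-0.37 ± 0.14), left the threshold when the 4 cell types were fitted without stage (adjusted p = 0.12). At puberty fibroblasts led, with 63.7 and 50.1 CPM (1.25 ± 0.28, edgeR adjusted p = 0.0072, and 0.087 without fibroblast replicate 1), and luminal libraries, at 53.4 and 24.5 CPM, did not differ from the rest past the threshold (0.41 ± 0.29, adjusted p = 0.26). An antisense gene, Gm29491, overlaps exons of Tgfb2, and whether the counting used strand is not given in the sources used here.

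Tgfb3 (ENSMUSG00000021253, chr12:86056745-86079041), the third TGF-beta isoform, was highest in adult fibroblasts, at 58.5 to 130 CPM with a median of 82.1 CPM (1.05 ± 0.10 on the log2 scale, edgeR adjusted p = 7.66e-09). Luminal (37.4 to 109 CPM) and basal libraries (38.6 to 68.6 CPM) overlapped and did not differ past the threshold (0.22 ± 0.13, adjusted p = 0.15). Each of the 8 adult adipocyte libraries, at 18.2 to 32.7 CPM, was below each of the 24 others. At puberty basal cells were lowest, at 21.9 and 19.8 CPM (-1.05 ± 0.22, edgeR adjusted p = 0.0072, and 0.081 and 0.11 without either basal library), and fibroblasts highest, at 68.7 and 51.4 CPM.

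Inhba (ENSMUSG00000041324, chr13:16011851-16031621), which encodes the beta A subunit of activin A, was low in every adult population. Its adult medians were 5.79 CPM in fibroblasts, 4.01 CPM in luminal cells, 3.18 CPM in basal cells and 0.767 CPM in adipocytes, and the ranges of the first 3 overlapped. Fibroblasts were above the other types (1.35 ± 0.28) and adipocytes below (-2.06 ± 0.35, edgeR adjusted p = 1.62e-05). The smaller luminal excess (0.69 ± 0.28, edgeR adjusted p = 0.031) left the threshold when any 1 of 5 libraries was left out and was 0.44 (adjusted p = 0.19) without the estrus replicate 1 luminal library, which had 10.96 CPM where the other 7 had 3.38 to 4.81. At puberty luminal cells had 52.6 and 22.9 CPM and fibroblasts 23.99 and 24.01 CPM, against 6.90 and 9.88 CPM in basal cells and 1.36 and 7.97 CPM in adipocytes. The pubertal luminal excess of 1.90 ± 0.50 (edgeR adjusted p = 0.015) was 1.22 without luminal replicate 1 (adjusted p = 0.17).

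Inhbb (ENSMUSG00000037035, chr1:119415465-119422248), which encodes the beta B subunit of activin B, was the most abundant ligand gene of luminal cells per unit of length, with an adult mean of 36.6 RPKM against 18.2 RPKM for Tgfb3 and 0.768 RPKM for Inhba. Its level was 122 to 194 CPM in adult luminal cells with a median of 152 CPM, and 3.16 to 7.93 CPM in adult basal cells, and no library of either epithelial type came near the other. The luminal excess was 2.95 ± 0.20 and the basal deficit -3.58 ± 0.29 on the log2 scale (edgeR adjusted p = 2.94e-11 and 3.81e-10). Adipocytes, at 18.1 to 95.7 CPM, and fibroblasts, at 17.6 to 67.7 CPM, lay between and did not differ past the threshold (0.14 ± 0.27, adjusted p = 0.65). Pubertal libraries showed the same epithelial contrast, with 160 and 165 CPM in luminal cells and 2.81 and 2.48 CPM in basal cells. The pubertal adipocyte pair had 144 and 32.5 CPM. Their excess of 1.93 ± 0.46 (edgeR adjusted p = 0.014) was 0.47 without replicate 1 (adjusted p = 0.38), the library with the higher endothelial sum (2213 against 450.5 CPM) and the higher luminal sum (1153 against 593.7 CPM), and the part of either in the result was not tested.

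Tgfbr1 (ENSMUSG00000007613, chr4:47353222-47414931), the type I receptor kinase, was highest in adult basal cells, at 103 to 191 CPM with a median of 141 CPM (0.81 ± 0.11, edgeR adjusted p = 1.49e-06). Fibroblasts followed at 55.3 to 180.1 CPM, and the difference of basal cells from fibroblasts (0.38 ± 0.15, adjusted p = 0.021) left the threshold under DESeq2 (0.27, adjusted p = 0.093) and when any 1 of 19 libraries was left out. Luminal cells (57.8 to 92.99 CPM) and adipocytes (48.9 to 99.4 CPM) were lower, and that pair did not differ past the threshold (0.31 ± 0.15, adjusted p = 0.059). Pubertal levels were 123.5 and 126 CPM in basal cells, 175 and 139 CPM in fibroblasts, 127 and 54.2 CPM in adipocytes and 76.9 and 43.5 CPM in luminal cells. Of these types only luminal cells were called against the rest at puberty (-1.05 ± 0.36, edgeR adjusted p = 0.043), and the call was lost when any 1 of 5 of the 8 libraries was left out.

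Tgfbr2 (ENSMUSG00000032440, chr9:116084293-116175360), the type II receptor that binds ligand first, was highest in fibroblasts. Adult fibroblasts had 243 to 500.5 CPM with a median of 386 CPM, above each of the 24 other adult libraries (113.5 to 210.0 CPM), and the log2 fold change was 1.34 ± 0.09 (edgeR adjusted p = 2.85e-11). Luminal, basal and adipocyte medians were 137, 163 and 162 CPM. Basal cells and adipocytes did not differ past the threshold (-0.06 ± 0.12, adjusted p = 0.63), nor did luminal and basal cells (-0.24 ± 0.12, adjusted p = 0.081), while luminal cells were lower than adipocytes (-0.30 ± 0.12, adjusted p = 0.027) and than the mean of the other types (-0.69 ± 0.10, edgeR adjusted p = 3.60e-06). The pair of luminal cells and adipocytes left the threshold without the adipocyte libraries with epidermal markers (-0.26, adjusted p = 0.070) and without estrus replicate 1 of the adipocytes (adjusted p = 0.052). Adipocytes were also called lower than the mean of the other types. That difference was -0.335 to -0.173 over 40 alternatives, and 21 of them kept the call. Pubertal fibroblasts, at 370.3 and 317 CPM, also exceeded the other types (1.07 ± 0.20, edgeR adjusted p = 0.0028, and 0.050 without fibroblast replicate 1).

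Tgfbr3 (ENSMUSG00000029287, chr5:107106570-107289629), which encodes betaglycan, separated luminal cells from the other populations. Adult luminal libraries had 5.14 to 13.7 CPM with a median of 8.89 CPM, whereas basal cells had 72.2 to 136 CPM, adipocytes 85.5 to 138.5 CPM and fibroblasts 166 to 405.5 CPM. The luminal deficit was -4.02 ± 0.17 and the fibroblast excess 2.41 ± 0.12 (edgeR adjusted p = 7.43e-15 and 8.97e-14), and basal cells and adipocytes did not differ past the threshold (0.15 ± 0.16, adjusted p = 0.39). Pubertal luminal libraries had 6.10 and 2.15 CPM, and every other pubertal library had at least 80.0 CPM. Per unit of length, the adult luminal mean was 16.3 RPKM for Tgfbr2, 11.8 RPKM for Tgfbr1 and 1.38 RPKM for Tgfbr3, and the adult fibroblast means were 47.4, 17.2 and 39.3 RPKM in the same order.

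Of the regulators, Fst (ENSMUSG00000021765, chr13:114452290-114458951), whose product follistatin binds activin, was the most abundant of the 10 genes in basal cells, with an adult mean of 147 RPKM against 21.9 RPKM for the next, Tgfbr1. Adult basal libraries had 459 to 825 CPM with a median of 715 CPM, fibroblasts 52.1 to 159 CPM, and luminal cells 3.47 to 22.1 CPM. The basal excess was 4.49 ± 0.25 and the luminal deficit -3.80 ± 0.36 on the log2 scale (edgeR adjusted p = 1.51e-12 and 4.70e-09). Adult adipocyte libraries had 12.6 to 29.8 CPM in 7 cases and 249 CPM in diestrus replicate 2, the library with the most basal and epidermal marker RNA. The basal excess was also present at puberty, with 488 and 439 CPM (2.62 ± 0.28, edgeR adjusted p = 2.91e-04), where luminal cells, at 84.7 and 92.99 CPM, did not differ from the rest past the threshold (-0.55 ± 0.32, adjusted p = 0.18).

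Ltbp1 (ENSMUSG00000001870, chr17:75005568-75392512), which encodes a latent TGF-beta binding protein of the matrix, was highest in fibroblasts, at 152 to 284 CPM in adults with a median of 203 CPM (2.31 ± 0.10, edgeR adjusted p = 2.99e-14) and at 188.5 and 209 CPM at puberty (1.64 ± 0.19, edgeR adjusted p = 2.35e-04). Adult luminal cells had 64.9 to 208 CPM, adipocytes 24.9 to 49.8 CPM and basal cells 14.7 to 41.0 CPM. Basal cells and adipocytes differed by -0.33 ± 0.14 (adjusted p = 0.037), and the call was lost when the adipocyte libraries with epidermal markers were left out (-0.20, adjusted p = 0.19), an alternative added after the data were seen. In epithelium the adult luminal level exceeded the basal one by 1.71 ± 0.14 (adjusted p = 1.04e-09), while at puberty basal cells had 113.5 and 113.6 CPM and luminal cells 57.2 and 58.0 CPM.

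**Figure D2:**
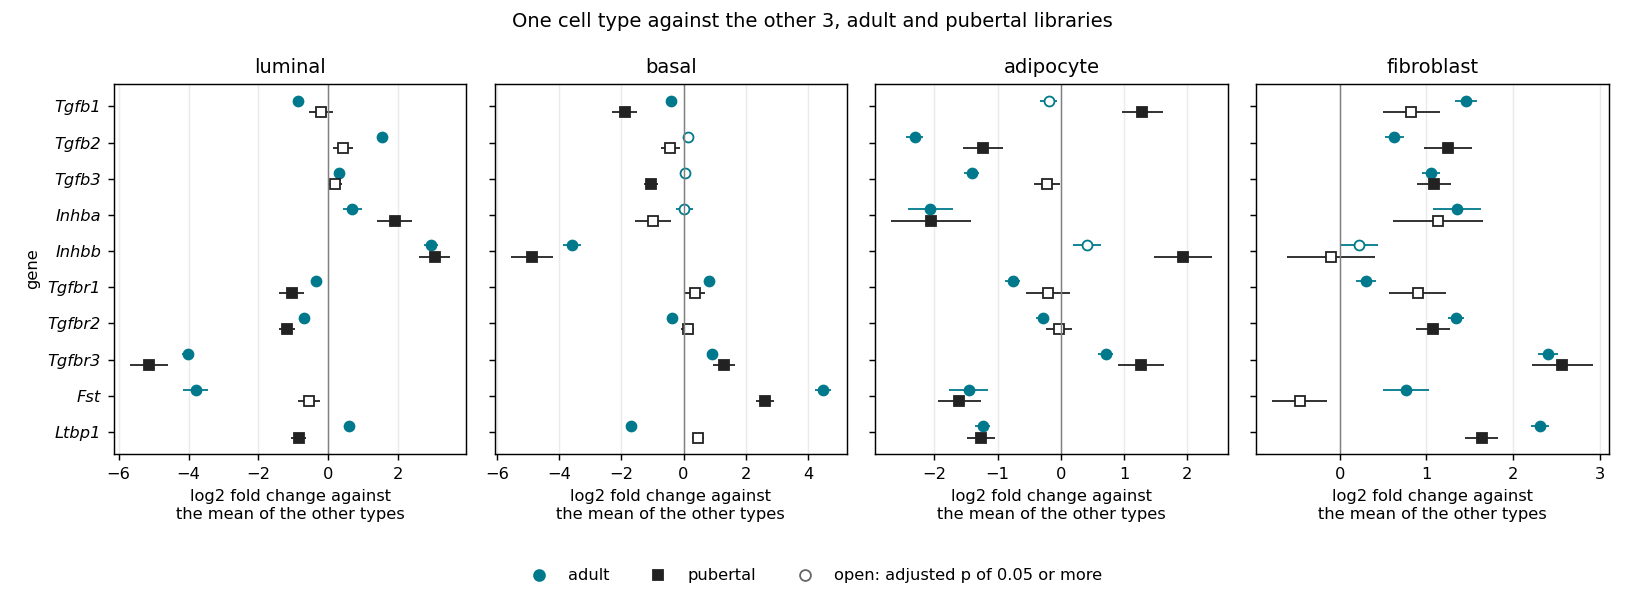
Log2 fold change with its standard error (horizontal axis) of each gene (vertical axis) in one cell type against the mean of the other 3, for the 32 adult libraries (circles) and the 8 pubertal libraries (squares), filled where the edgeR adjusted p was under 0.05. The horizontal scale differs between panels. Luminal Tgfbr3 lies at -4.02 in adults and -5.14 at puberty, and luminal Fst lies at -3.80 in adults and -0.55 at puberty.

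In the pubertal fit of 14263 genes, fibroblasts had 5 of the 10 genes higher and none lower (all genes 23.6% and 18.7%), luminal cells 2 higher and 4 lower (23.6% and 24.5%), basal cells 2 higher and 3 lower (17.2% and 18.1%) and adipocytes 3 higher and 4 lower (24.1% and 5.97%). Of the 60 adult tests of pairs of cell types, 50 passed, against 79.2% of the tests over all genes. With 2 libraries a group, 17 to 25 of the 40 pubertal tests passed when a single library was left out, against 23 with all 8.

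The rest of the pathway was measured in 6 lists of 77 genes. The 8 extracellular antagonists include follistatin-like proteins and small proteoglycans. All 8 were higher in adult fibroblasts and all 8 lower in adult luminal cells. Dcn, in this list, was also among the fibroblast markers summed above. Bgn (biglycan) was higher in fibroblasts by 6.62 ± 0.11 and Fstl1 by 5.52 ± 0.11 on the log2 scale. Of 15 genes of latency and activation, 11 were higher and 2 lower in adult fibroblasts, among them Ltbp4 (5.67 ± 0.12), which encodes another latent TGF-beta binding protein, and 10 were higher and 2 lower in basal cells. Of 16 Smads and their regulators, 13 were higher and none lower in adult basal cells (median 0.66), led by Ldlrad4 (1.80 ± 0.07) and Tgif1 (1.23 ± 0.06), which restrain Smad signalling, and 2 were higher and 13 lower in adipocytes (median -0.66). Smad3, an effector shared by TGF-beta and activin, was higher in luminal cells (1.27 ± 0.07) and lower in adipocytes (-1.84 ± 0.08).

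Of 18 genes often induced by TGF-beta, 15 were higher and 1 lower in adult fibroblasts, and 1 was higher and 14 lower in luminal cells. The leading members in both were Zeb1 (5.21 ± 0.10 in fibroblasts) and Zeb2, mesenchymal transcription factors, and Tgfbi, a matrix protein. The list also held Col1a1, which was among the fibroblast markers. Of the 8 other receptors tested of 9, 3 were higher and 1 lower in fibroblasts, among them Acvrl1 (3.20 ± 0.14) and Eng (2.91 ± 0.15), which endothelial cells are known to express. Endothelial markers summed to 944 to 2547 CPM in the adult fibroblast libraries, and their part in these values was not tested. Of 11 other ligands 5 were tested, and 3 of these were higher in fibroblasts. Over the 6 lists and 4 adult comparisons 83.9% of 280 tests passed, beside 73.8% to 80.5% of all genes in each comparison.

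Puberty was compared with the mean of the 4 adult stages within each cell type in a fit of all 40 libraries and 15356 genes. Luminal cells had 2 of the 10 genes higher at puberty and 1 lower, basal cells 2 higher and 2 lower, adipocytes 2 higher and none lower, and fibroblasts 2 higher and 1 lower. Over all genes, the shares higher and lower were 9.03% and 4.36% for luminal, 18.5% and 15.8% for basal, 14.7% and 8.76% for adipocyte and 12.1% and 11.8% for fibroblast libraries. The run differed with age throughout, so each of these is a difference between pubertal and adult libraries and not of age alone.

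The 3 luminal calls were in Fst, Inhba and Tgfbr3. Luminal Fst was 84.7 and 92.99 CPM at puberty and 3.47 to 22.1 CPM in the 8 adult libraries, so that the groups did not overlap (3.30 ± 0.45, edgeR adjusted p = 1.72e-05). Luminal Inhba was 52.6 and 22.9 CPM at puberty and 3.38 to 10.96 CPM in adults, again without overlap (3.00 ± 0.48, edgeR adjusted p = 1.33e-04). Luminal Inhbb was at the same order of level in both, at 160 and 165 CPM against 122 to 194 CPM (0.07 ± 0.47, adjusted p = 0.99). Luminal Tgfbr3 was lower at puberty (-1.06 ± 0.35, edgeR adjusted p = 0.042), a call that was lost when luminal libraries were fitted on their own (adjusted p = 0.12), without a filter on low counts (adjusted p = 0.055) and when any 1 of 9 libraries was left out, and that was -0.55 (adjusted p = 0.66) without luminal puberty replicate 2. Fibroblast markers summed to 23.3 and 31.3 CPM in the pubertal luminal libraries and to 107 to 532 CPM in the adult ones. Of these markers, Dcn was lower at puberty in luminal cells (-3.17 ± 0.50). Col1a1 was 0.732 to 1.21 CPM in adult luminal libraries and 0.691 and 1.75 CPM in the pubertal ones. The part of fibroblast RNA in the Tgfbr3 value was not tested. Inhba was higher at puberty in fibroblasts as well (1.85 ± 0.51, edgeR adjusted p = 0.0099), at 23.99 and 24.01 CPM against 1.44 to 15.01 CPM, without overlap, and the adjusted p was 0.070 and 0.084 without either pubertal fibroblast library. In basal cells its difference of 1.33 ± 0.53 missed the threshold (adjusted p = 0.054). In adipocytes it was called (2.05 ± 0.57, adjusted p = 0.012), but the difference was 0.28 (adjusted p = 0.84) without puberty replicate 2, the library with 7.97 CPM and 724 CPM of epidermal markers, whose part in the result was not tested.

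The 4 basal calls were in Ltbp1, Tgfb1, Tgfb3 and Tgfbr2. Basal Ltbp1 was 113.5 and 113.6 CPM at puberty and 14.7 to 41.0 CPM in adults (2.08 ± 0.19, edgeR adjusted p = 1.59e-08), and the adult libraries all lay below. Basal Tgfb1 was 10.2 and 12.2 CPM at puberty and 35.9 to 59.4 CPM in adults (-2.07 ± 0.35, edgeR adjusted p = 6.55e-05), and basal Tgfb3 was 21.9 and 19.8 CPM against 38.6 to 68.6 CPM (-1.27 ± 0.22, edgeR adjusted p = 1.24e-04), in both cases without overlap. Basal Tgfbr2 was higher at puberty by 0.50 ± 0.18 (edgeR adjusted p = 0.032), with 208 and 236 CPM against 117 to 195 CPM, and the call was lost when any 1 of 5 libraries was left out. Epidermal markers moved with age in the basal libraries, as given above, and their part in these results was not tested.

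Fibroblast Tgfb1 was lower at puberty, at 39.5 and 47.8 CPM against 95.05 to 194 CPM (-1.51 ± 0.33, edgeR adjusted p = 0.0018), and fibroblast Tgfb2 was higher, at 63.7 and 50.1 CPM against 28.3 to 43.9 CPM (0.71 ± 0.23, edgeR adjusted p = 0.028). The fibroblast Tgfb2 call was lost without either pubertal fibroblast library (adjusted p = 0.29 and 0.074) and without 1 adult library. Adipocyte Tgfb2 was 14.5 and 17.4 CPM at puberty and 3.80 to 18.2 CPM in adults (1.08 ± 0.24, edgeR adjusted p = 0.0022), and here the groups overlapped through the diestrus libraries. Fitted on adipocytes alone, its adjusted p was 0.051. Fibroblast and luminal markers, as given above, were also higher in the pubertal fat libraries than in most adult ones, and their part in this value was not tested. Tgfb1 was not called in luminal cells (-0.47 ± 0.31, adjusted p = 0.34) or adipocytes (0.11 ± 0.29, adjusted p = 0.81). For Tgfbr1 the differences ran from -0.35 in luminal cells to 0.54 in adipocytes and fibroblasts, and none passed the threshold.

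**Figure D3:**
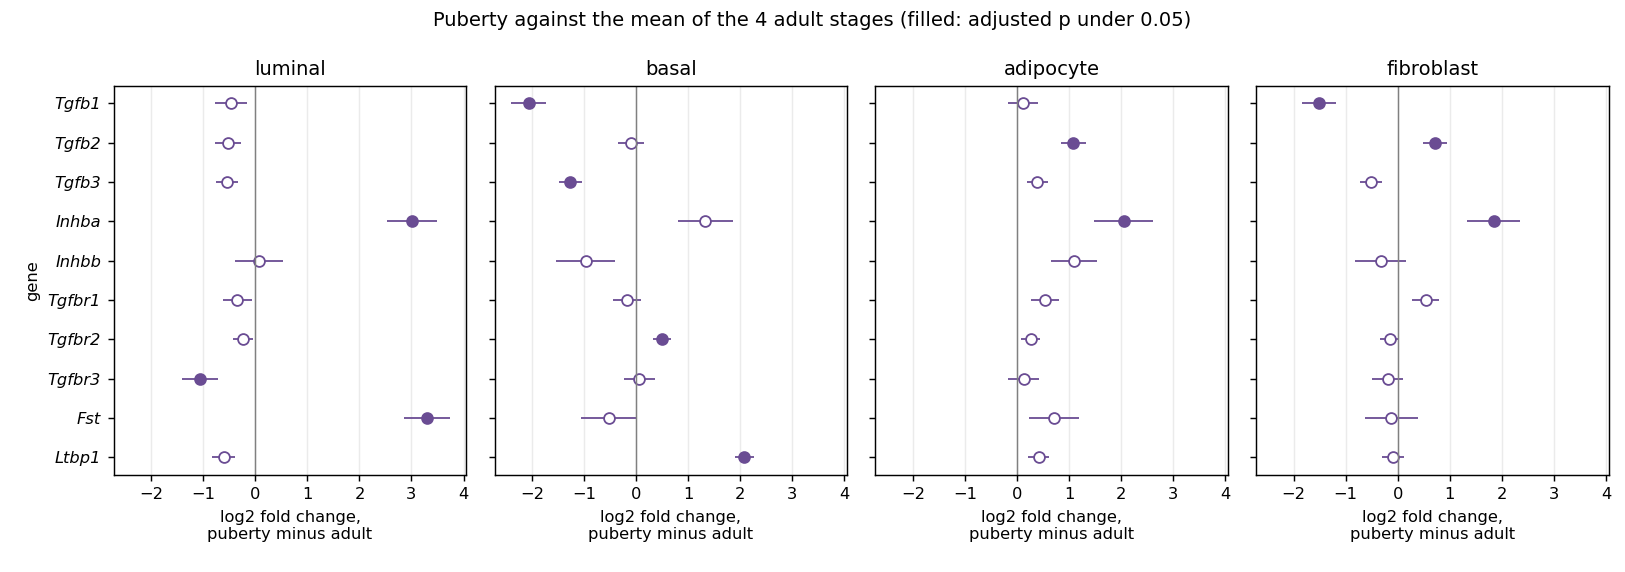
Log2 fold change with its standard error (horizontal axis) of each gene (vertical axis) between puberty and the mean of the 4 adult stages, by cell type, filled where the edgeR adjusted p was under 0.05. Luminal Fst (3.30) and Inhba (3.00) lie to the right of luminal Inhbb (0.07), and basal Ltbp1 (2.08) lies opposite basal Tgfb1 (-2.07).

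Whether the pattern over cell types differed with age was tested as an interaction, a cell type against the mean of the other 3 at puberty minus the same contrast in adults, in which a run effect common to all cell types cancels. Of 40 tests of the 10 genes 11 passed, against 15.9% of all tests, with none in fibroblasts. Luminal Fst (3.28 ± 0.56, edgeR adjusted p = 6.19e-04) rose relative to the other types, and luminal Ltbp1 (-1.41 ± 0.26) and Tgfb2 (-1.08 ± 0.29) fell. Basal Ltbp1 (2.18 ± 0.23, edgeR adjusted p = 1.47e-06) rose, and basal Tgfb1 (-1.45 ± 0.37), Tgfb3 (-1.04 ± 0.25) and Fst (-1.83 ± 0.63, adjusted p = 0.049) fell. Adipocyte Tgfb1 (1.46 ± 0.33), Tgfb3 (1.16 ± 0.23), Tgfb2 (1.05 ± 0.28) and Inhbb (1.501 ± 0.53, adjusted p = 0.044) rose. The 4 contrasts share their libraries, so they are not independent of each other. Basal Fst left the threshold when any 1 of 31 libraries was left out and adipocyte Inhbb when any 1 of 27 was, and with the replicate as a block the adjusted p of adipocyte Inhbb was 0.087. Adipocyte Tgfb1 was 0.61 (adjusted p = 0.32) without puberty replicate 1, and luminal Tgfb2 was -0.63 (adjusted p = 0.41) without luminal puberty replicate 2. The calls of basal Tgfb1 and Tgfb3 were lost without either pubertal basal library, and that of adipocyte Tgfb2 without puberty replicate 2 (adjusted p = 0.068). Luminal Inhba (1.26 ± 0.62, adjusted p = 0.16) was not called, so its age difference was not shown to be particular to luminal cells.

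Across the pathway lists, 101 of 280 tests of puberty against adults passed (36.1%), where the share of all genes was 13.4% for luminal, 34.3% for basal, 23.5% for adipocyte and 23.9% for fibroblast libraries. Luminal cells had 2 of 70 higher and 18 lower, basal cells 8 and 27, adipocytes 13 and 3 and fibroblasts 12 and 18. In luminal cells 6 of 16 Smads and their regulators were lower at puberty and none higher, among them Smad7 (-1.27 ± 0.27) and Pmepa1 (-1.74 ± 0.25), inhibitors of the pathway that TGF-beta itself is known to induce. In basal cells 8 of 16 were lower and none higher, with Smad7 at -1.71 ± 0.28 and Pmepa1 at -1.68 ± 0.25. Fibroblasts had 2 higher and 7 lower, with Pmepa1 at -1.02 ± 0.24, and adipocytes 1 higher and 2 lower, with Pmepa1 at -1.33 ± 0.24. Fstl3, a follistatin relative that also binds activin, was lower at puberty in luminal cells (-1.69 ± 0.20), basal cells (-2.37 ± 0.20) and fibroblasts (-1.41 ± 0.19), and its adipocyte difference was -0.33 ± 0.19 (adjusted p = 0.21). Fbn2, a fibrillin of elastic and developing matrix, was higher in basal cells (2.16 ± 0.39), fibroblasts (3.43 ± 0.39) and adipocytes (4.72 ± 0.48). Of genes often induced by TGF-beta, Fn1 (fibronectin) was higher in basal cells (3.71 ± 0.39) and adipocytes (1.77 ± 0.40), and Col1a1, also a fibroblast marker, was higher in adipocytes (2.24 ± 0.41). By cell type this list had 1 higher and 4 lower (luminal), 4 higher and 7 lower (basal), 4 higher and 1 lower (adipocyte) and 4 higher and 4 lower (fibroblast).

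The estrous stages were compared within each cell type on its own 8 libraries, by 6 pairs of stages and each stage against the mean of the other 3. Of 400 tests of the 10 genes over these 40 comparisons, edgeR called 3, beside 0.351% of all tests. The unadjusted p of edgeR was under 0.05 in 71. Over all genes it was under 0.05 in 249 to 4796 genes of a comparison, each extreme among 13726 adipocyte genes. The 71 therefore does not set these genes apart. There were 25 calls with DESeq2 and 15 when all 32 adult libraries shared 1 fit. The shares of all genes called in those fits are not given here, so neither count can be set against them. The study used the replicate number to mark early or late within a stage where cytology and histology showed it. With that number as a block 1 call remained, luminal Ltbp1. Over all genes, the study reported far more stage calls in adipocytes and fibroblasts, and its counts were not reproduced here. The adipocyte pairs of diestrus with proestrus, estrus and metestrus had 0, 11 and 0 of 13726 genes called, and no fibroblast pair had any. 

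The first call was luminal Ltbp1 at proestrus. It was 208 and 127 CPM at proestrus, 74.4 and 74.8 CPM at estrus, 71.1 and 69.7 CPM at metestrus and 70.6 and 64.9 CPM at diestrus. Both proestrus libraries were above all 6 others. The log2 fold change against the mean of the other stages was 1.23 ± 0.15 (edgeR adjusted p = 0.018), where 0.382% of 12306 genes were higher. Without proestrus replicate 1 it was 0.82 (adjusted p = 0.12), and without 1 of the 4 estrus or metestrus libraries the adjusted p was 0.051 to 0.069. Luminal Tgfb3 had the same shape, with 109 and 89.6 CPM at proestrus and 37.4 to 66.7 CPM in the other 6 libraries, but missed the threshold (1.02 ± 0.19, adjusted p = 0.068). It passed in DESeq2 (adjusted p = 7.41e-05). In basal cells Ltbp1 was 23.02 and 27.8 CPM at proestrus and 41.0 and 38.3 CPM at estrus, and no basal stage test of the 10 genes passed in edgeR, though DESeq2 called Ltbp1 at estrus against the other stages (0.78, adjusted p = 0.030). In fibroblasts Tgfbr1 was 55.3 and 82.5 CPM at estrus and 121 and 180.1 CPM at metestrus. That difference was not called by edgeR (1.23 ± 0.29, adjusted p = 0.094) but was by DESeq2 (adjusted p = 0.0041). Fibroblast Tgfb3 was 130 and 95.6 CPM at estrus and 58.5 and 68.5 CPM at diestrus, also called by DESeq2 (-0.74, adjusted p = 0.029) and not by edgeR (-0.71 ± 0.21, adjusted p = 0.0995). Of the pathway lists, Tgif2, a repressor that binds Smads, was called in the same luminal comparison (0.99 ± 0.14, adjusted p = 0.025).

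The other calls were in diestrus adipocytes, where 7.53% of 13726 genes were higher than in the other stages. Adipocyte Tgfb2 was 13.3 and 18.2 CPM at diestrus against 3.80 to 7.23 CPM in the other 6 adult libraries (1.39 ± 0.30, edgeR adjusted p = 0.041). Both diestrus libraries were above all others. Adipocyte Fst was 29.8 and 249 CPM at diestrus against 12.6 to 27.8 CPM (2.89 ± 0.66, edgeR adjusted p = 0.045), a difference carried by replicate 2. Without the adipocyte libraries that held epidermal markers, diestrus replicate 2 among them, Fst fell to 0.87 (adjusted p = 0.18) and Tgfb2 was 1.35 (adjusted p = 0.066). Each of these calls was also lost when any 1 of 7 of the 8 libraries was left out. Inhba, at 0.855 and 6.43 CPM against 0.430 to 1.55 CPM, was not called by edgeR (2.21 ± 0.74, adjusted p = 0.093). It was called by DESeq2 (2.272, adjusted p = 0.037) and by edgeR when all 32 adult libraries shared 1 fit (2.255, adjusted p = 0.0087). Its replicate 1 value lay within the range of the other stages, so the difference was carried by replicate 2.

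Markers of epithelium moved with these values. Diestrus replicate 1 had 1122 CPM of luminal markers and 527 CPM of basal markers, replicate 2 had 152 and 3241 CPM. In the remaining 6 adult fat libraries the same sums were 131 to 343 CPM and 86.4 to 358 CPM. Adipocyte markers summed to 9824 and 3171 CPM in the diestrus libraries and to 8185 to 14240 CPM in the others. Of 67 tested genes of the pathway lists, 10 were higher and none lower in diestrus adipocytes, beside the 7.53% of all genes given above. The integrin genes Itgb6 (4.68 ± 0.78) and Itgb8 (2.68 ± 0.42), which epithelial cells are known to use in activating TGF-beta, and Ccn2 (3.44 ± 0.55) showed the largest differences, and the others, Itgav, Tgif1, Fstl3, Smad3, Mmp14, Skil and Trim33, were between 0.42 and 1.23. The part of epithelial RNA in these results was not tested. Over all 10 adipocyte libraries the 2 highest Fst values were in the 2 libraries with the highest basal marker sums, and the highest Inhbb value, 144 CPM, was in the library with the highest endothelial and the highest luminal sum. The next Inhbb value, 95.7 CPM in diestrus replicate 1, was in the library with the next luminal sum, 1122 CPM, and an endothelial sum of 1207 CPM, which 4 other libraries passed, as the plot of adipocyte libraries against marker sums shows.

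**Figure D4:**
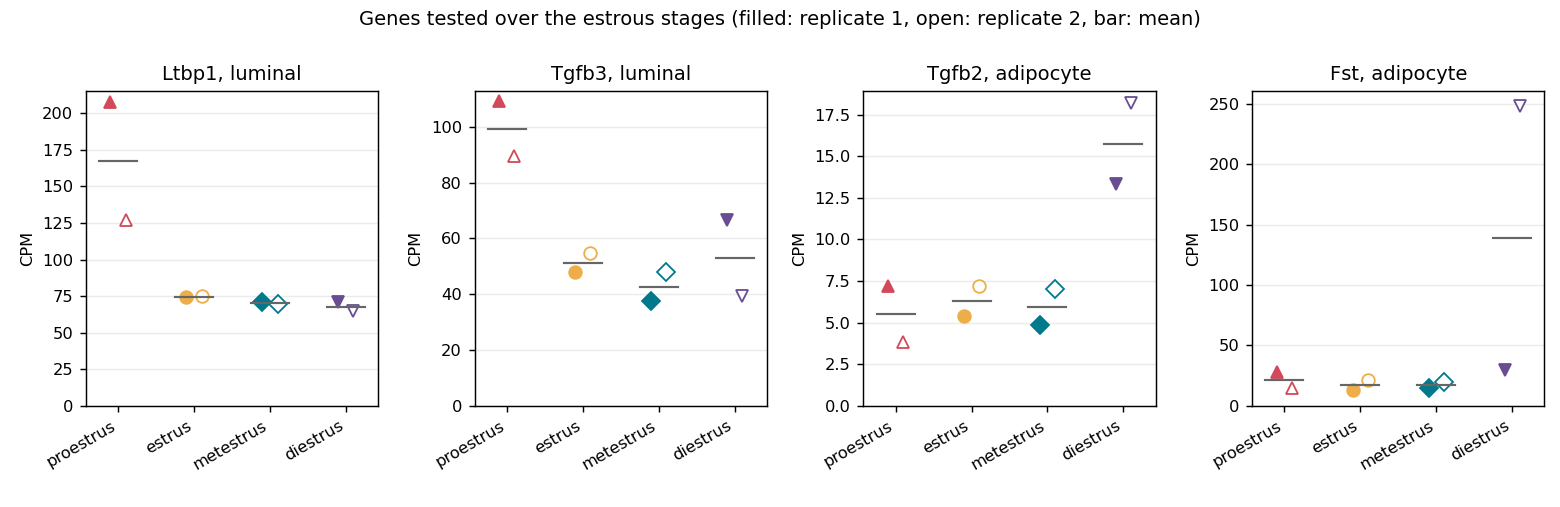
CPM (vertical axis, from 0) of luminal Ltbp1 and Tgfb3 and adipocyte Tgfb2 and Fst at each estrous stage (horizontal axis), filled for replicate 1, open for replicate 2, with a bar at the mean of the 2. Proestrus stands above the other stages in both luminal panels, and in the Fst panel diestrus replicate 2, at 249 CPM, stands apart from replicate 1, at 29.8 CPM.

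**Figure D5:**
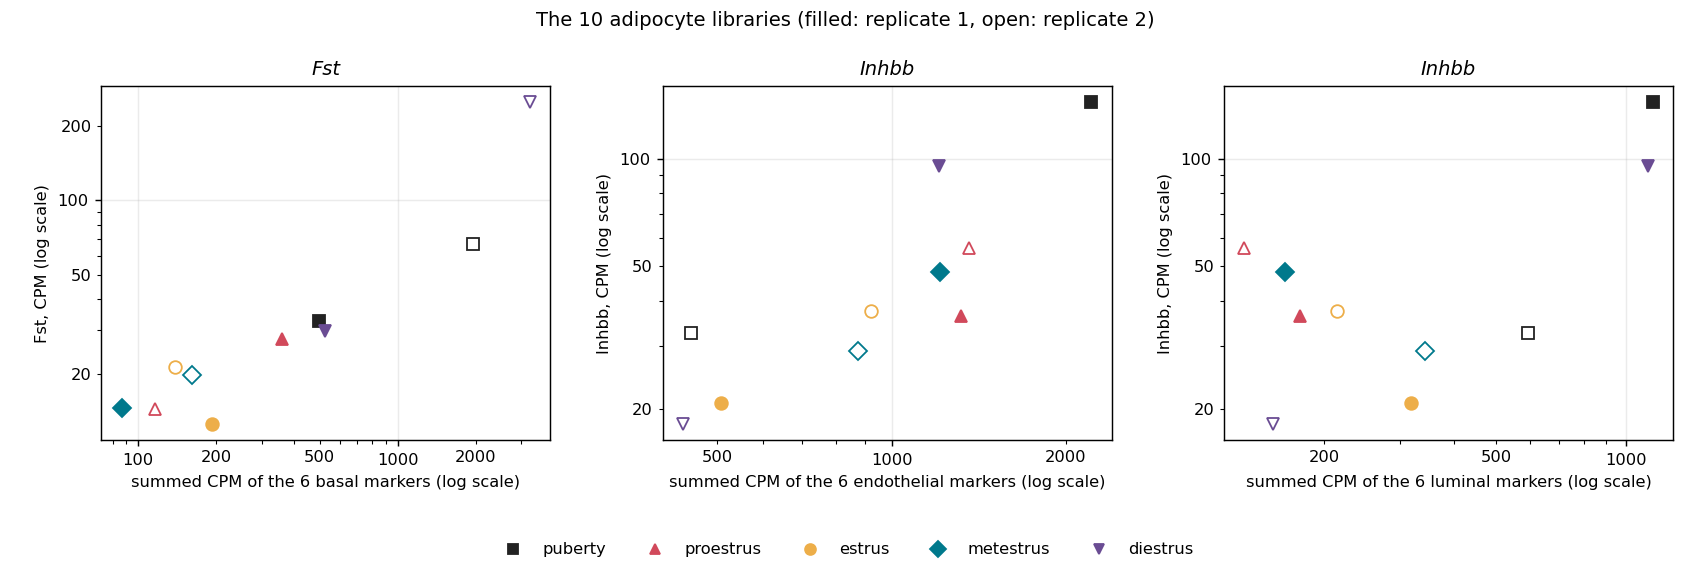
CPM (vertical axis, log scale) of Fst and Inhbb in the 10 adipocyte libraries against the summed CPM of 6 basal, 6 endothelial or 6 luminal markers in the same libraries (horizontal axes, log scale), filled for replicate 1 and open for replicate 2. Fst is highest, at 249 CPM, where basal markers sum to 3241 CPM, and Inhbb is highest, at 144 CPM, where endothelial markers sum to 2213 CPM and luminal markers to 1153 CPM.

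The genes whose pattern was most like each member were ranked by Pearson's r of log2(CPM + 1) over the 20 group means of cell type and stage, among 14354 genes, as a description of means that share libraries. Tgfbr3 was closest to Plpp3 (r = 0.990) and Inhbb to Podxl (0.981), which encodes podocalyxin. Itgav, the alpha v integrin subunit that takes part in activating latent TGF-beta, was closest to Tgfb2 (0.965). Fst was closest to Ptpn13 (0.957), with Has2, a hyaluronan synthase, at 0.947, and Tgfbr1 and Tgfbr2 were closest to Map3k2 (0.966) and Fnip2 (0.960). Ltbp1 was closest to Ttyh3 (0.937) and Tgfb1 to H2-Q4 (0.953), a member of a family of near-identical genes whose counts are uncertain. Tgfb3 (0.903, Fam131a) and Inhba (0.866, Acot9) had the loosest matches.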

How the data were processed

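The authors sequenced stranded polyA libraries (65-base single reads), aligned them with TopHat2 2.1 and Bowtie 1.1.0 to GRCm38, per the submitters' processing notes and the study's methods, and deposited HTSeq read counts per Ensembl gene for 32 adult and 8 pubertal libraries. The strand setting of the counting is not given in the sources used here, so antisense reads cannot be set apart. Besides Gm29491 at Tgfb2, annotated antisense genes overlap exons of Tgfb3 (Gm37804, Gm48008) and Fst (Gm47040). Gm43422 overlaps exons of Tgfbr3 on the same strand. Of these overlapping genes only Gm29491 is in the adult count table. The tables of log2 values that the authors also deposited equal log2(count x 1e7 / total + 1) and were not used. Gene names came from GENCODE M21, which matched 24726 of 25044 adult and 23977 of 24268 pubertal identifiers, and promoters from RefSeq (GRCm38.p6).

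A gene entered a fit when 2 or more of its libraries passed 1 CPM, and was tested, by the filter, scaling and test of the study's methods, with edgeR 4.0.16 (TMM, quasi-likelihood with legacy = TRUE) in R 4.3.3, which are not the study's versions, with Benjamini-Hochberg adjustment within each contrast and a threshold of 0.05. Groups came from the labels. DESeq2 1.42.0, other scalings, filters, blocks and left-out libraries were alternatives. In simulated counts, of 100 genes changed by a log2 difference of 1, 100 were called for adult luminal cells against the rest, 27 for the pubertal ones, 95 for luminal proestrus, 49 for luminal puberty against adults and 41 for the luminal interaction, with 2 to 11 false calls. The simulation gave each gene only the spread of the fitted trend, with equal means over groups before the change, and changed no low gene. It left out the spread particular to each gene, so it does not give the power in these data. With 2 pools a group, p-values measure only the spread between these pools. The members and lists were chosen with earlier results of these data known. Named genes are the members, the 4 of each pathway list with the smallest adjusted p in a comparison, and the 3 most like each member. Some genes that this rule names are not reported here.

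The 4 cell types of an adult pool come from the same mice. Deviations of same-numbered libraries from their group means correlated with a median r of 0.083 (24 adult pairs of cell types, -0.082 to 0.296) and 0.179 (6 pubertal pairs, in which the replicate 2 fat library came from mice of another day).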

Additional observations from a re-analysis of the deposited data

Results flagged for a closer look

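In 6 of 40 sets of 8 adult libraries, a single library was separated from the nearest other by more than 0.526 of the range of the set, Dixon's 95% limit for 8 samples, which chance passes in about 1 set in 20. Fst in adipocytes was 249 CPM in diestrus replicate 2, against 12.6 to 29.8 CPM in the other 7, and Inhba in the same library was 6.43 CPM against 0.430 to 1.55 CPM. Tgfbr1 in adipocytes was 99.4 CPM in diestrus replicate 1, against 48.9 to 66.5 CPM. Inhba in luminal cells was 10.96 CPM in estrus replicate 1, against 3.38 to 4.81 CPM. Ltbp1 in luminal cells was 208 CPM in proestrus replicate 1, against 64.9 to 127 CPM, the upper value being the other proestrus library. Tgfb1 in fibroblasts was 194 CPM in estrus replicate 1, against 95.05 to 134.6 CPM. That library had the lowest total (8991222 counts) and the lowest TMM factor (0.6943). On plain library totals its Tgfb1 was 134.4 CPM, against 79.55 to 124.7 CPM in the other adult fibroblast libraries.

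The pattern over cell types differed between puberty and adults for 6 genes, by the interaction given in the text. In luminal cells relative to the rest the log2 difference was 3.28 for Fst, -1.08 for Tgfb2 and -1.41 for Ltbp1. In basal cells it was 2.18 for Ltbp1, -1.45 for Tgfb1, -1.04 for Tgfb3 and -1.83 for Fst. In adipocytes it was 1.46 for Tgfb1, 1.05 for Tgfb2, 1.16 for Tgfb3 and 1.501 for Inhbb. The pubertal adipocyte libraries differed in their endothelial sums (2213 and 450.5 CPM) and epidermal sums (2.55 and 724 CPM), and the part of either in these values was not tested.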

How the results depend on the processing

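No call among the 10 genes changed direction under any alternative. The number of calls was 34 for adult cell types (31 to 35 with 1 library left out), 50 for pairs (48 to 51), 23 for pubertal cell types (17 to 25), 12 for puberty against adults (10 to 16) and 11 for the interaction (7 to 13) and stayed within 1.5 times of these under the other alternatives, one of which, without the adipocyte libraries with epidermal markers, was chosen after seeing the data. The 3 stage calls became 25 with DESeq2, 15 when all 32 adult libraries shared 1 fit, 45 without a filter on low counts, 1 without the adipocyte libraries with epidermal markers and 1 to 14 with 1 library left out (14 without adipocyte diestrus replicate 1). Without the filter the prior degrees of freedom rose from 4.31 to 7090 in luminal cells and had no upper limit in basal cells and fibroblasts, beside 4 residual ones, so the tests in these 3 types rest almost wholly on a common spread. With a replicate block the stage calls fell to 1. The shares of all genes called over the stages under these alternatives are not given here, so the counts of stage calls cannot be set against them. Across stages a number stands for early or late within a stage or, where that was unclear, balances cell number, and not for shared mice (correlations of -0.671 to 0.431 over 24 pairs). Blocking on the replicate left 34 calls for cell types, 51 for pairs, 24 at puberty, 12 by age and 11 for the interaction, and lost no call apart from those of adipocyte Tgfb2 and Fst at diestrus and adipocyte Inhbb in the interaction. Plain library totals in place of TMM moved 18 of 80 mean levels by more than 1 SD. Inhba in adipocytes, at 6 reads in its lowest library, is limited by depth.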
